A study of Mus musculus with 12 samples.

Results

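The monoamine and acetylcholine transmission genes are 46 genes that make, store, break down or sense dopamine, noradrenaline, serotonin, histamine and acetylcholine. They were taken as the non-control spots of the arrays whose gene name is one of the 46, which gave 73 spots of 64 different probes among 43020 spots and 29608 gene names in all. Of the 46 members, 31 had a spot that was neither marked by the scanner software nor under 2 times its local background in any mouse, and these 31 were tested among 17302 genes. The tested share was 67.4% of the members and 58.4% of all gene names.

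RNA of the cortex was measured in 12 adult female mice, 4 in each of 3 groups, on 6 arrays that each held 2 mice of the same group. The MRL/lpr mice carry the lpr defect of Fas and develop lupus-like autoimmunity. The Fn14ko mice (labelled Fn14koMRL) lack Fn14, the receptor of the cytokine TWEAK, which is encoded by Tnfrsf12a, and were by the methods MRL/lpr littermates of backcross generation 8. The MRL/+ mice (labelled MRL/MpJ) are the strain without lpr. By the methods all mice were in diestrus at about 12 weeks of age, the MRL/lpr and Fn14ko mice were bred together and the MRL/+ mice were bought from another breeder. No slide carried arrays of more than 1 group, so group, slide and, for MRL/+, breeder cannot be told apart.

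Monoamines reach the cortex from cell bodies that lie outside it: noradrenaline from the locus coeruleus, serotonin from the raphe nuclei, dopamine from the midbrain and histamine from the hypothalamus, while acetylcholine comes mainly from the basal forebrain. A cortical RNA sample therefore holds mostly the receptors and the degrading enzymes, made by local neurons and glia, and little RNA of the synthesis enzymes and transporters of the incoming axons. Most receptors couple to G proteins, and the nicotinic receptors and the serotonin receptor of Htr3a are ion channels. In a bulk sample fewer cells of a type and less RNA per cell cannot be told apart.

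Signals are given in units of the median retained spot of the mouse. Replicates 1 and 3 of each group were read in Cy3 and replicates 2 and 4 in Cy5. Between 56.63% and 70.03% of spots were well above background in 10 mice, but 35.0% and 21.2% in MRL/+ replicates 2 and 4, whose negative control spots had medians of 0.6625 and 0.8225 against 0.046 to 0.3376 elsewhere. Of the 31 tested members, 10 in MRL/+ replicate 2 and 19 in MRL/+ replicate 4 lay at or below that mouse's own negative control median, and 0 did in any other mouse. More mice were touched at the 95th percentile of the negative controls. At or below it lay 9, 12, 8 and 9 of the 31 in MRL/lpr replicates 1 to 4. These were 25.8% to 38.7% of members, against 16.7% to 28.3% of all genes. It was 4 and 3 in Fn14ko replicates 2 and 4, and 11 and 21 in MRL/+ replicates 2 and 4. On both MRL/lpr arrays there were patches of bright spots that the software did not mark, and 3 members lay in them. Tnfrsf12a read 0.694 ± 0.0786 (SD, n = 4) in Fn14ko, against 1.11 ± 0.152 in the MRL/+ group and 1.68 ± 0.246 among MRL/lpr mice, and whether its probe lies in the deleted part was not given. Of 10 markers of cortical excitatory neurons 9 were measured.

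Only 8 of the 31 tested members were well above background in all 12 mice: the adrenergic receptors Adra1b, Adra1d, Adra2a and Adra2c, the muscarinic receptor Chrm1, the histamine receptor Hrh3, the serotonin receptor Htr3a and the acetylcholine-degrading enzyme Ache. The highest mean signal among members outside the bright patches was that of Hrh3, at 10.4, and the lowest was that of Chrm4, at 0.239. These rank spots and not RNA amounts, since each probe binds with its own efficiency. The tested members were on the whole dim, with 10 of 31 above the median gene in mean signal. Those 10 include Htr6, Htr2a and Slc6a3, whose means hold the spots in the bright patches.

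The other 15 members gave only detection. Slc6a2, Slc6a4, Hrh2 and Chrm5 (the noradrenaline and serotonin transporters, a histamine receptor and a muscarinic receptor) were well above background in 0 of 12 mice. Htr1d and Chrna3 were detected in 2 mice each, Drd3 and Htr5a in 4, Adra1a and Slc5a7 in 5, Drd5 in 6, and Htr4 and Chrna5 in 7. Slc18a2, the vesicular monoamine transporter, was detected in 9 and Chrna7 in 10 of 12 mice. Chrna7, the subunit of the alpha-7 nicotinic receptor, had 11 spots of 2 probes, each of which was dim or marked. Detection was lower in Cy5 than in Cy3 for many members, and every tested member detected in 2 of 4 MRL/+ mice was detected there in the Cy3 mice alone.

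**Figure D1:**
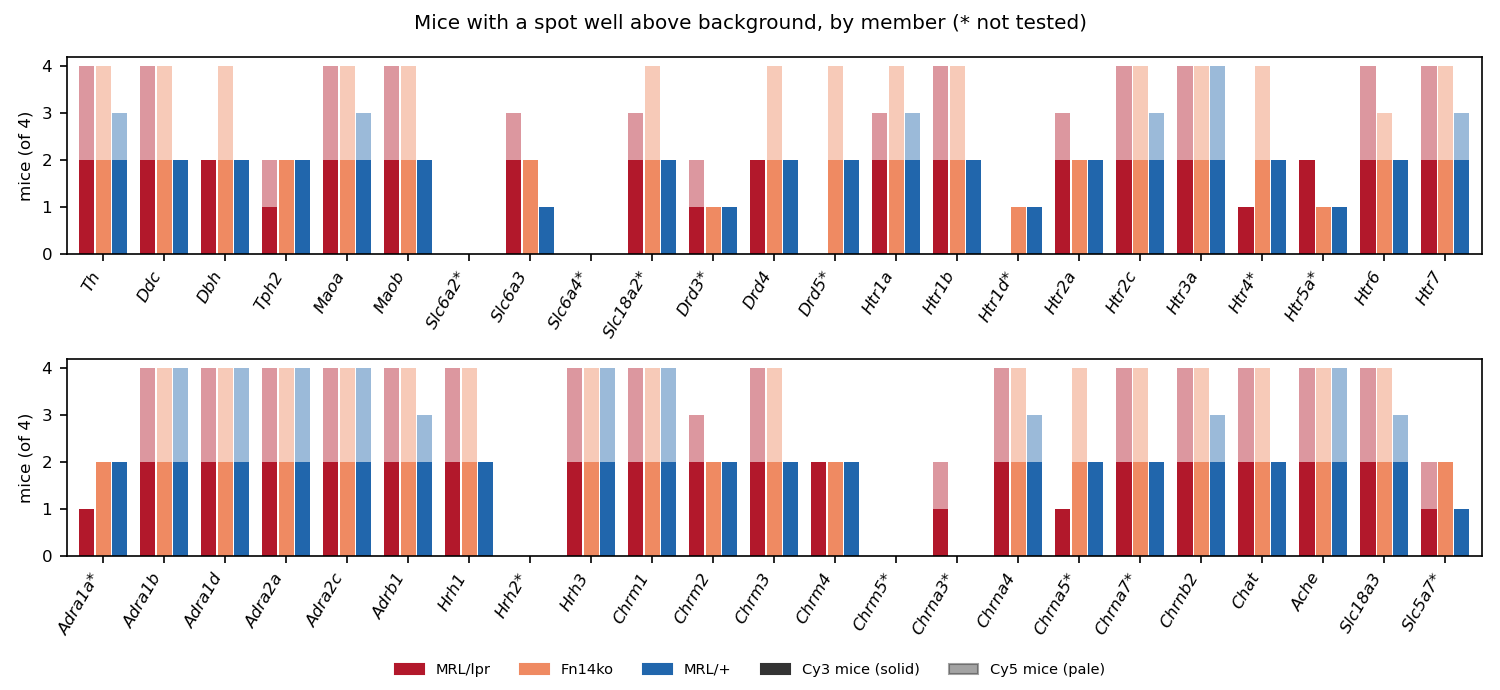
Number of mice, of 4 in each group, in which a spot of the member was well above background, for all 46 members in the order of their roles. Solid parts of the bars are Cy3 mice, pale parts Cy5 mice, and an asterisk marks the 15 members that were not tested; Slc6a2, Slc6a4, Hrh2 and Chrm5 have no bar.

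The first comparison, MRL/lpr against MRL/+, sets the lupus-prone mice against the control strain, which also differed in slide and breeder. Ache fell to 0.455 of its MRL/+ mean, the adrenergic receptor Adra1d to 0.354, and the serotonin receptors Htr3a and Htr1a to 0.324 and 0.416. The adrenergic receptor Adrb1 rose 1.81-fold and the histamine receptor Hrh3 rose 1.94-fold. In all, 6 of 31 members (19.4%) passed an adjusted p of 0.05 in limma, against 14.4% of all 17302 genes. By direction 4 members fell, where 8.37% of all genes fell, and 2 rose, where 6.03% of all genes rose. The median log2 fold change was -0.38 over the members and -0.10 over all genes. The count was 3 without MRL/lpr replicate 2 or without MRL/+ replicate 4, with 1669 and 781 of all genes called then. It was 12 without MRL/+ replicate 3, with 5551 genes called. It was 0 where dim spots were kept, with 22 of 29149 genes called then. Where both Cy5 mice of MRL/+ were left out, 3 members (Ache, Adra1d and Htr3a) and 871 of all genes were called.

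Fn14ko against MRL/+ asks what differs from the control strain when Fn14 is also absent. The degrading enzyme Maob rose 2.23-fold and was the only member of 31 (3.23%) past the threshold, against 0.954% of all genes in either direction. Of all genes 0.237% rose and 0.717% fell. The median log2 fold change was -0.31 over the members and -0.10 over all genes. The count was 0 without Fn14ko replicate 2 or MRL/+ replicate 4, 2 without MRL/+ replicate 1, 3 without Fn14ko replicate 1 and 4 without MRL/+ replicate 3. The fewest genes, 8, were called without MRL/+ replicate 4 and the most, 2164, without MRL/+ replicate 3.

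MRL/lpr against Fn14ko sets lpr mice with Fn14 against lpr mice without it, which were also on different slides. Adra1d was lower in MRL/lpr, at 0.529 of its Fn14ko mean, and Adrb1 was 1.92-fold higher. These 2 of 31 members (6.45%) compare with 4.57% of all genes in either direction, 2.58% higher and 1.99% lower. The median was -0.18 over the members and -0.07 over all genes. The count was 0 without MRL/lpr replicate 2, Fn14ko replicate 2, MRL/+ replicate 3 or MRL/+ replicate 4, where the MRL/+ mice enter only through the shared variance and dye term. It was 1 without MRL/lpr replicate 1 or 4 or Fn14ko replicate 1, 3 or 4, and 3 without MRL/+ replicate 2. Of all genes the fewest, 357, were called without MRL/+ replicate 4 and the most, 1002, without MRL/+ replicate 1. The 3 comparisons share their groups, so their values stand side by side below and are not independent.

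**Figure D2:**
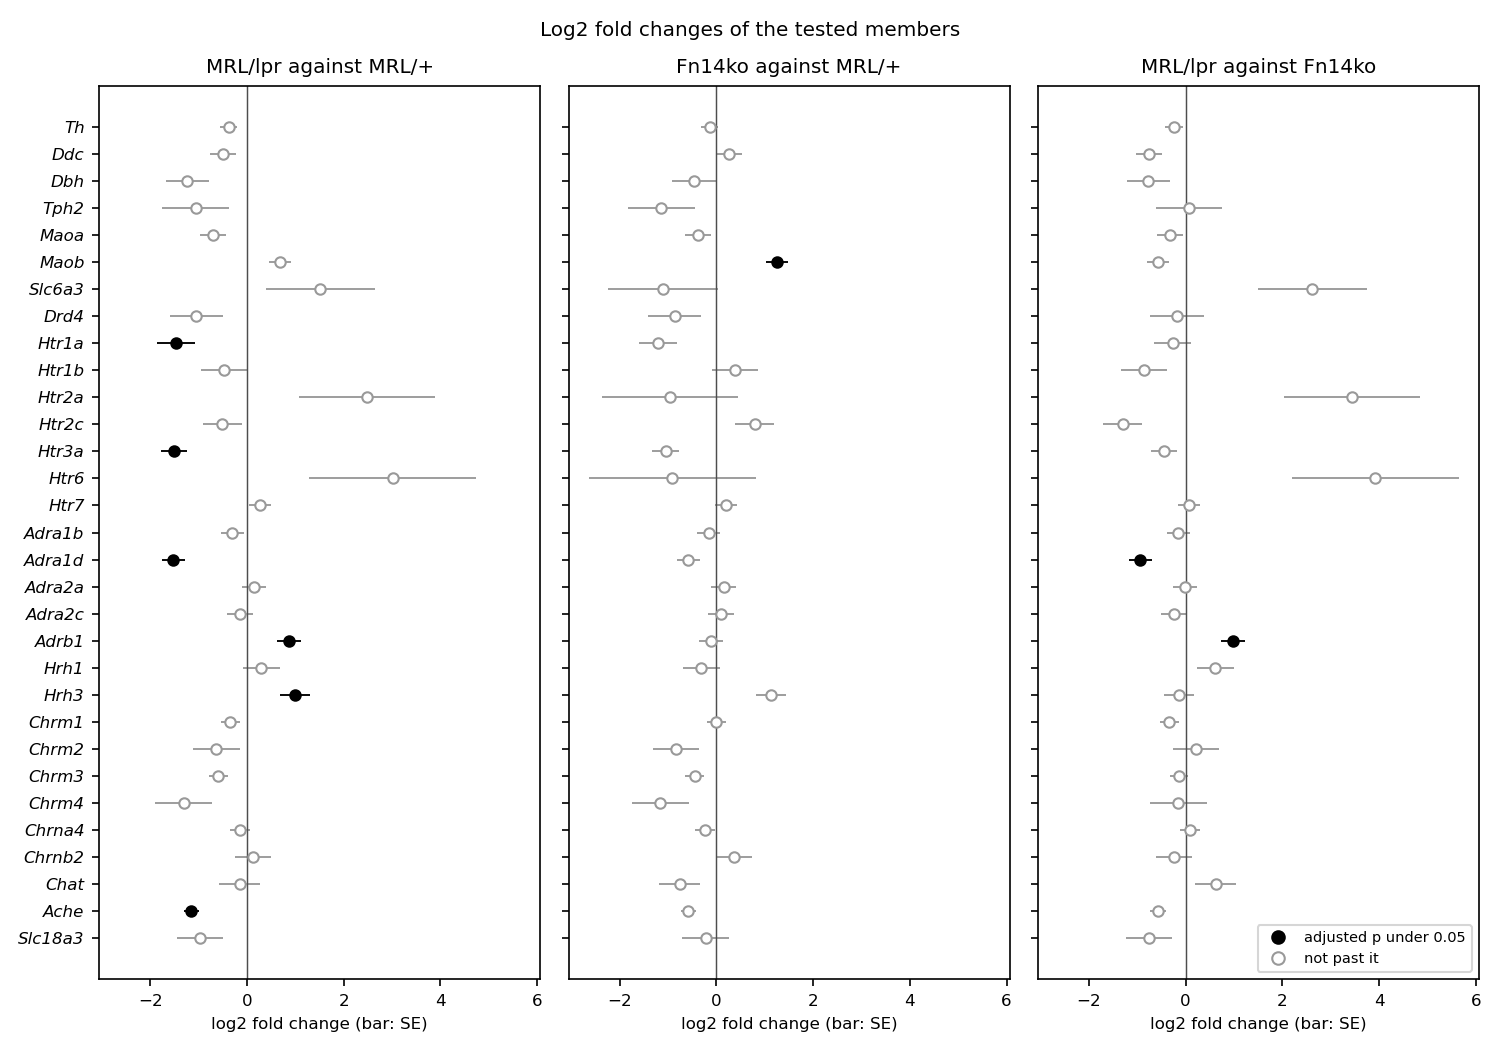
Log2 fold changes with standard errors (bars) of the 31 tested members in each of the 3 comparisons, by role from enzymes to receptors, on 1 shared axis. Filled points are the 6, 1 and 2 members with a limma adjusted p under 0.05; Slc6a3, Htr2a and Htr6, which lie in bright patches on 1 MRL/lpr array each, have the longest bars.

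Sequence before the annotated gene is held by RefSeq (GRCm38.p6) for 4 of the 7 members past a threshold and is shown for all 4, so that the promoters of members that fell (Ache, Htr1a) and rose (Adrb1, Hrh3) can be read side by side. Capitals mark matches on either strand to the GC box GGGCGG or the CCAAT box CCAAT. The windows are chr5:137288004-137288246 for Ache, chr13:105443443-105443692 for Htr1a and chr19:56721867-56722116 for Adrb1, all on the plus strand, and chr2:180104485-180104657 on the minus strand for Hrh3. They are written 5′ to 3′.
Ache: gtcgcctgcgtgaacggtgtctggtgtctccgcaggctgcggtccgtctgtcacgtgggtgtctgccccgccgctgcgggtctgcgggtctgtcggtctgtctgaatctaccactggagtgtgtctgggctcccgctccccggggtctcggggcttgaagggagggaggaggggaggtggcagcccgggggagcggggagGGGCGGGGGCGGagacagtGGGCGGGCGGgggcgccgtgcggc
Htr1a: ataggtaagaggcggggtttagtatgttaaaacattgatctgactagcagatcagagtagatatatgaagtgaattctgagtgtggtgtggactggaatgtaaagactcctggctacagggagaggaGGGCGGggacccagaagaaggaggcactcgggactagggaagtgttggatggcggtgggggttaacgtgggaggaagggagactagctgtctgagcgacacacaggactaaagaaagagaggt
Adrb1: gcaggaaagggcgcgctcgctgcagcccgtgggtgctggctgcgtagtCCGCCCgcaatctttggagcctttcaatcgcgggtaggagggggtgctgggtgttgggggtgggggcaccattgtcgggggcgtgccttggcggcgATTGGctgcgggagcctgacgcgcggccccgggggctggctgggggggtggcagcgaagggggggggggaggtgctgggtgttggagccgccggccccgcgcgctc
Hrh3: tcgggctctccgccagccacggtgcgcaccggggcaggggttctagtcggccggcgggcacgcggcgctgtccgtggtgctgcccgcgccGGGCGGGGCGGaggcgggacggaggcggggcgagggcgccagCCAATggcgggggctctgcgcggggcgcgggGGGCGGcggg

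All 4 windows held the GC box, Ache 4 times, Hrh3 3 times and Htr1a and Adrb1 once each, with neighbouring matches overlapping in Ache and Hrh3. It was in 31.8%, 19.9% and 32.7% of all 32851 listed promoters over the lengths of the Ache, Hrh3 and 250-base windows. The CCAAT box was found once in Adrb1, where 33.8% of promoters hold it, and once in Hrh3, where 23.8% do. None of the 4 windows held the TATA box TATAAA, the cAMP response element TGACGTCA or the kappaB site, which are in 12.4%, 1.55% and 0.14% of promoters over 250 bases. Bases G and C made up 73.3% of the Ache window, 74.0% of Adrb1, 83.2% of Hrh3 and 50.4% of Htr1a.

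The synthesis enzymes were tested as 4 of 4 and 0 passed the threshold in any comparison. Th, which makes the precursor of dopamine and noradrenaline, read 0.696 to 0.935 in MRL/lpr, 0.763 to 1.18 in Fn14ko and 0.931 to 1.21 in MRL/+, ranges that overlap only slightly between MRL/lpr and MRL/+ (log2 fold change -0.38 ± 0.18 SE, limma adjusted p = 0.147). Ddc, which makes dopamine and serotonin from their precursors, was at 0.282 to 0.416 in MRL/lpr and at 0.558 to 0.717 in Fn14ko, without overlap, but its difference of -0.76 ± 0.27 did not pass (limma adjusted p = 0.145). The noradrenaline enzyme Dbh and the brain serotonin enzyme Tph2 were dimmer, at 0.260 on average each, and were well above background in 8 and 6 of 12 mice. Their signals reached the negative control level in both Cy5 mice of MRL/+, where MRL/lpr against MRL/+ gave -1.23 and -1.06 on the log2 scale (limma adjusted p = 0.0818 and 0.27).

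Of the degrading enzymes Maoa and Maob, the monoamine oxidases, Maob passed in 1 comparison and Maoa in 0, and the difference between them was not tested. Maob read 1.76, 1.39, 1.46 and 1.38 in Fn14ko, 1.11, 0.901, 1.25 and 0.824 in MRL/lpr, and 0.998, 0.569, 0.767 and 0.350 in MRL/+. Every Fn14ko mouse was above every other mouse, while the MRL/lpr and MRL/+ mice overlapped. Against MRL/+ the log2 fold change was 1.25 ± 0.23 in Fn14ko (limma adjusted p = 0.0319, exact permutation p = 0.0286, the smallest that 4 against 4 mice allows). In MRL/lpr against MRL/+ it was 0.69 ± 0.23 (limma adjusted p = 0.0651). Between MRL/lpr and Fn14ko it was -0.57 ± 0.23 (limma adjusted p = 0.214). The permutation test, here and below, takes each mouse as a separate unit and ignores the array that 2 mice share and their dyes.

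Both Cy5 mice of MRL/+ were at or below their negative control median for Maob. In the Cy3 mice alone the Fn14ko difference was 0.87 (limma adjusted p = 0.0785). The call was also lost without Fn14ko replicate 2 (1.19, limma adjusted p = 0.114) and without MRL/+ replicate 4 (1.06, limma adjusted p = 0.143). Maob is known as an enzyme of astrocytes, and the summed signal of 8 astrocyte markers was 119 to 134 in Fn14ko, 121 to 226 in MRL/lpr and 106 to 153 in MRL/+. Maoa read 0.350 to 0.454 in MRL/lpr and 0.343 to 0.974 in MRL/+, and differed by -0.71 ± 0.27 on the log2 scale (limma adjusted p = 0.0878). The single Maob probe lies at chrX:16286427-16286486 of mm9, on the minus strand.

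Of 4 monoamine transporters, only the dopamine transporter Slc6a3 had a retained spot. It read 2.87 and 9.13 in MRL/lpr replicates 1 and 2, and 0.125 and 0.199 in MRL/lpr replicates 3 and 4. In Fn14ko it read 0.0754 to 0.263 and in MRL/+ 0.102 to 0.570. The mice read high were thus the 2 of MRL/lpr array 1, and the other 2 of their group lay within the range of the rest.

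Htr6 and Htr2a, both serotonin receptors, showed the same kind of pattern. Htr6 read 28.8 and 119 in MRL/lpr replicates 1 and 2 and 0.132 to 0.580 in the other 10 mice. Htr2a read 9.92 and 37.1 in MRL/lpr replicates 3 and 4, on array 2, and 0.111 to 0.590 in the other mice. Neighbouring spots of unrelated genes were bright at the same place. In both channels 11 of 14 neighbours of the Htr6 spot, 12 of 14 of Htr2a and 8 of 14 of Slc6a3 were at least 4-fold above the median of all mice read in the same dye. The median log2 excess of the neighbours was 5.17, 4.28 and 2.33. On the MRL/lpr arrays 26 and 23 retained spots were at least 8 times above all other mice, and all of them lay in such patches, against 0 on the other 4 arrays. The second Htr6 probe was too dim to be tested, with a mean signal of 0.213.

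**Figure D3:**
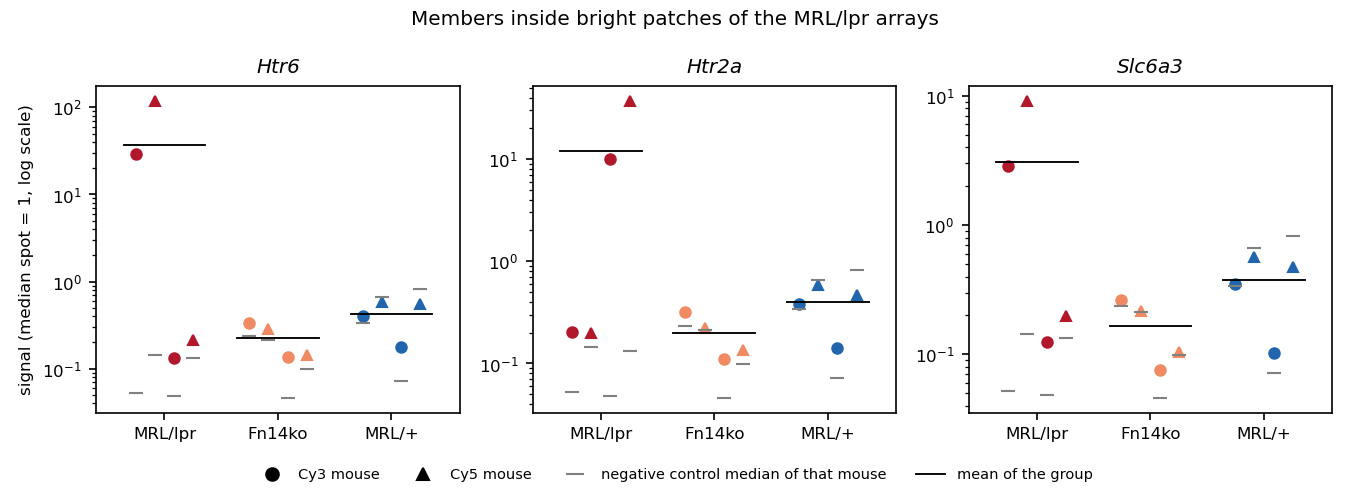
Signal of Htr6, Htr2a and Slc6a3 in each of the 12 mice on a log scale, with circles for Cy3 and triangles for Cy5, group means as black lines and each mouse's negative control median as a grey dash. The 2 mice of MRL/lpr array 1 stand high for Htr6 and Slc6a3 and the 2 of array 2 for Htr2a, and all other mice lie at or under 0.590.

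None of the 3 passed the threshold in any comparison, with log2 fold changes of 1.52 for Slc6a3, 2.48 for Htr2a and 3.01 for Htr6 in MRL/lpr against MRL/+ (limma adjusted p = 0.337, 0.214 and 0.221). Their MRL/lpr group means include the spots in the patches. With patch spots left out, 28 members were tested and 7, 2 and 2 passed in the 3 comparisons. In MRL/lpr against MRL/+ 2883 of 17035 genes passed then, and the other 2 comparisons carry no number of all genes here.

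Adra1d, the alpha-1D adrenergic receptor, fell in MRL/lpr against both other groups. It read 1.70, 1.30, 0.982 and 1.51 in MRL/lpr, 2.45, 3.10, 2.65 and 2.18 in Fn14ko, and 4.01, 3.28, 4.50 and 3.72 in MRL/+. No mouse of a group overlapped another group, and Fn14ko lay between. Against MRL/+ the log2 fold change was -1.52 ± 0.24 (limma adjusted p = 0.00198), and against Fn14ko it was -0.94 ± 0.24 (limma adjusted p = 0.0405), both with an exact permutation p of 0.0286. Fn14ko against MRL/+ stood at -0.58 ± 0.24 (limma adjusted p = 0.192, exact permutation p = 0.0286).

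Both Adra1d probes, at chr2:131371198-131371257 and chr2:131371721-131371780 of mm9 on the minus strand, fell in MRL/lpr against MRL/+ when tested singly, by 1.44 and 1.8 on the log2 scale (limma adjusted p = 0.00254 and 0.00167). The call against MRL/+ was lost only where dim spots were kept (-0.92, limma adjusted p = 0.274). The call against Fn14ko was lost on leaving out any of 6 mice (MRL/lpr replicates 2 and 3, Fn14ko replicates 2 and 3 and MRL/+ replicates 3 and 4), with values of -0.94 to -0.75 and limma adjusted p between 0.0634 and 0.178. The summed signal of 9 markers of cortical excitatory neurons was 41.2 to 46.8 in MRL/lpr, 47.1 to 68.2 in Fn14ko and 55.6 to 82.0 in MRL/+. Single markers of that list went both ways in MRL/lpr against MRL/+: Slc17a7 (-1.08), Neurod2 (-0.95) and Neurod6 (-1.70) fell, and Tbr1 (1.53), Cux2 (1.57) and Rorb (0.69) rose. Markers of other cell types changed in the same comparison. The summed signal of 8 endothelium markers was 24.8 to 26.7 in MRL/lpr, 17.9 to 25.2 in Fn14ko and 12.6 to 16.4 in MRL/+. Of these Ly6c1 (1.47), Flt1 (1.07) and Slco1a4 (1.05) rose in MRL/lpr against MRL/+. The other 5 did not pass, at -0.89 for Cdh5, -0.24 for Pecam1 and 0.11 to 0.80 for the rest. The summed signal of 8 oligodendrocyte and myelin markers was 53.0 to 78.5 in MRL/lpr, 84.2 to 104 in Fn14ko and 79.8 to 92.4 in MRL/+. Of these Mbp (-1.63) and Cldn11 (-1.19) fell in MRL/lpr against MRL/+, and the other 6 did not pass, at -0.86 to 0.11. Of 8 microglia markers Aif1 (1.17) rose, and the other 7 did not pass, at -0.31 for Itgam to 0.52 for Csf1r. The summed signal of the 8 was 31.4 to 44.8 in MRL/lpr, 29.7 to 41.3 in Fn14ko and 33.2 to 41.8 in MRL/+. In MRL/lpr against Fn14ko, Cux2 (1.73), Rorb (1.06) and the interneuron marker Vip (1.09) were higher, and Neurod6 (-2.11), Mobp (-1.18) and Cnp (-1.16) were lower. The other 6 excitatory neuron, 8 interneuron and 6 oligodendrocyte and myelin markers did not pass there. In Fn14ko against MRL/+, Ly6c1 (1.49) and Slco1a4 (0.85) were higher, and the other 6 endothelium markers did not pass, at -1.16 for Cdh5 to 0.55 for Flt1. The part of these cell types in the Adra1d results and in the other differences between groups was not tested.

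Adrb1, the beta-1 adrenergic receptor, went the other way. It read 1.62, 1.53, 1.28 and 1.67 in MRL/lpr, 0.699, 0.683, 1.15 and 0.647 in Fn14ko, and 0.696, 0.791, 0.828 and 1.05 in MRL/+. All 4 MRL/lpr mice were above all 8 others, and Fn14ko and MRL/+ overlapped. The log2 fold change was 0.87 ± 0.25 against MRL/+ (limma adjusted p = 0.0347) and 0.97 ± 0.25 against Fn14ko (limma adjusted p = 0.0409), each with an exact permutation p of 0.0286. Between Fn14ko and MRL/+ it was -0.11 ± 0.25 (limma adjusted p = 0.792).

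The 2 Adrb1 probes disagreed. The brighter, at chr19:56799215-56799274 of mm9 and with a mean signal of 1.86, was at 1.21 in MRL/lpr against MRL/+ (limma adjusted p = 0.0113). The dimmer, at chr19:56797242-56797301 and 0.248, was at -1.28 (limma adjusted p = 0.105) and was detected in 2 of 4 MRL/+ mice. With the probes averaged on the log2 scale the difference became -0.03 (limma adjusted p = 0.934). The call against MRL/+ was lost without any of MRL/lpr replicates 1, 2 and 4, Fn14ko replicate 2 and MRL/+ replicates 3 and 4 (0.79 to 0.98, limma adjusted p between 0.054 and 0.105). The call against Fn14ko was lost without any of 8 mice (MRL/lpr replicates 1, 2 and 4, Fn14ko replicates 1, 2 and 4 and MRL/+ replicates 3 and 4), at 0.83 to 0.98 (limma adjusted p between 0.0565 and 0.152).

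Of the other adrenergic receptors, Adra1b, Adra2a and Adra2c were bright in all mice and differed little between groups. Their log2 fold changes lay between -0.30 and 0.15 in all 3 comparisons, with limma adjusted p of 0.363 or more. Adra2a, the main alpha-2 receptor of the cortex, read 1.57 to 2.6 in MRL/lpr, 1.31 to 2.38 in Fn14ko and 1.48 to 1.86 in MRL/+. Adra2c was even within MRL/lpr, at 3.84 to 4.30, and wider in Fn14ko (3.83 to 6.87) and MRL/+ (3.2 to 6.82). Adra1a was not tested.

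**Figure D4:**
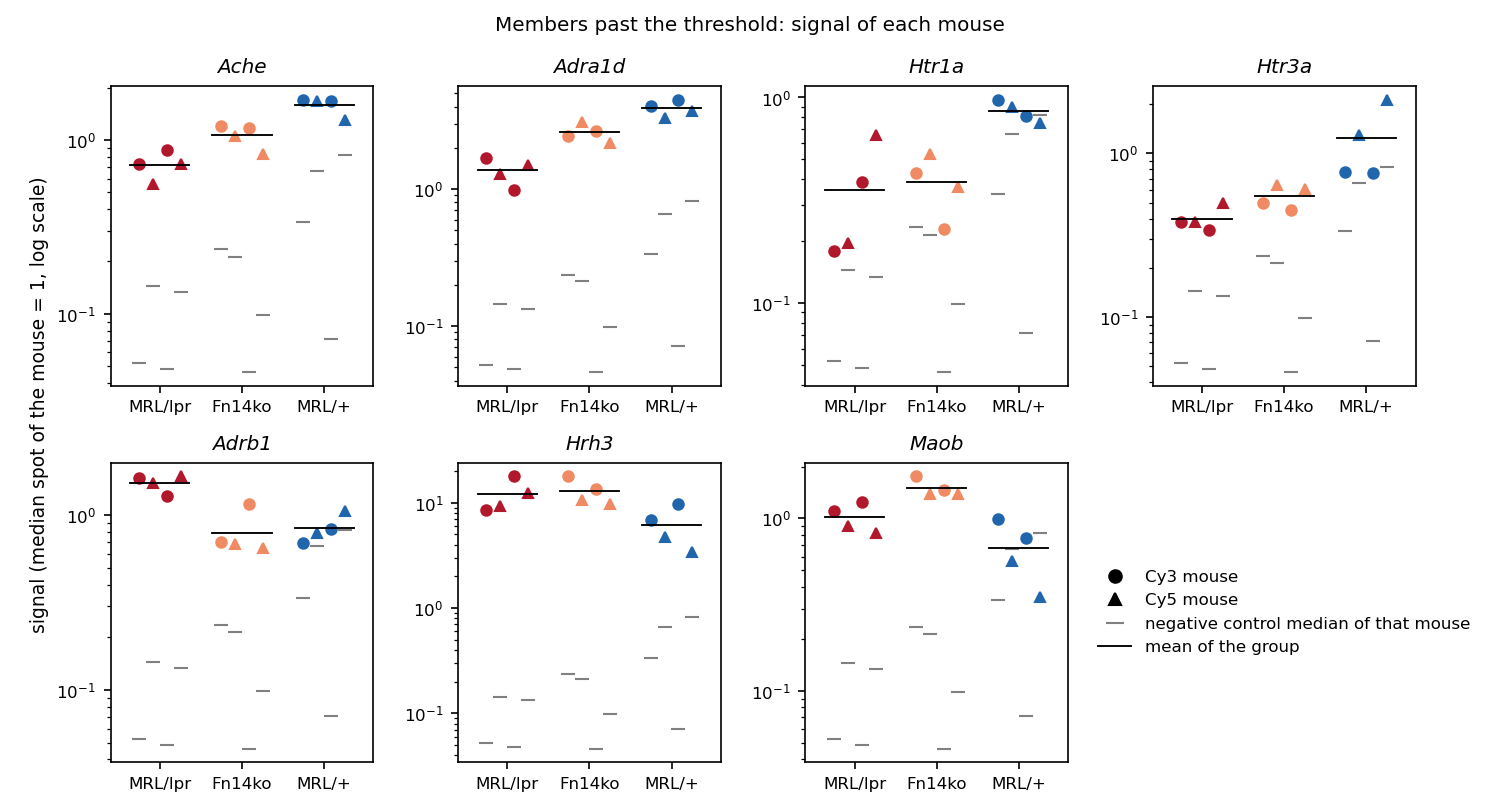
Signal of the 7 members past the threshold in each mouse (log scale), with circles for Cy3, triangles for Cy5, black lines for group means and grey dashes for the negative control median of the same mouse. Ache, Adra1d and Htr3a are lower in all MRL/lpr mice than in all MRL/+ mice, and in Htr1a and Maob the Cy5 mice of MRL/+ lie near their negative controls.

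Among 7 tested serotonin receptors, 2 fell in MRL/lpr against MRL/+, where 8.37% of all genes fell, and 0 rose, where 6.03% of all genes rose. Htr3a, the subunit of the ion channel receptor and a marker of a class of cortical interneurons, read 0.383, 0.380, 0.339 and 0.499 in MRL/lpr, 0.499, 0.637, 0.45 and 0.603 in Fn14ko, and 0.766, 1.29, 0.757 and 2.13 in MRL/+. All MRL/+ mice lay above all mice of both other groups, and the MRL/lpr and Fn14ko mice overlapped between 0.45 and 0.499. Against MRL/+ the log2 fold change was -1.50 ± 0.27 in MRL/lpr (limma adjusted p = 0.00395) and -1.05 ± 0.27 in Fn14ko (limma adjusted p = 0.078), with an exact permutation p of 0.0286 in each. Between MRL/lpr and Fn14ko it was -0.45 ± 0.27 (limma adjusted p = 0.404).

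The Cy5 mice of MRL/+ were the high ones for Htr3a, and in the Cy3 mice alone the MRL/lpr difference was -1.08 (limma adjusted p = 0.0196). MRL/lpr replicate 2, at 0.38, lay under the 95th percentile of its negative controls (0.4516). Of 9 measured interneuron markers, Npy (1.37), Pvalb (1.03) and Vip (1.26) rose in MRL/lpr against MRL/+. The other 6 did not pass, at -0.81 for Reln, -0.58 for Lhx6 and -0.05 to 0.51 for the rest. The summed signal of the 9 was 150 to 193 in MRL/lpr, 123 to 235 in Fn14ko and 127 to 171 in MRL/+, and its part in the Htr3a result was not tested. The Htr3a probe lies at chr9:48707773-48707832 of mm9 on the minus strand.

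Htr1a, the inhibitory autoreceptor of raphe neurons that cortical neurons also carry, read 0.179, 0.196, 0.389 and 0.660 in MRL/lpr, 0.429, 0.532, 0.229 and 0.367 in Fn14ko, and 0.976, 0.896, 0.808 and 0.748 in MRL/+. MRL/+ lay above both other groups in every mouse, and MRL/lpr and Fn14ko overlapped widely. The log2 fold change against MRL/+ was -1.47 ± 0.39 in MRL/lpr (limma adjusted p = 0.0278) and -1.20 ± 0.39 in Fn14ko (limma adjusted p = 0.134), with an exact permutation p of 0.0286 in each. It was -0.27 ± 0.39 between MRL/lpr and Fn14ko (limma adjusted p = 0.79).

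MRL/+ replicate 4 was under its negative control median for Htr1a, while the Cy3 mice of MRL/+, at 0.976 and 0.808, were well above theirs. MRL/lpr replicates 1 and 2, at 0.179 and 0.196, lay under the 95th percentile of their negative controls (0.3042 and 0.4516). Htr1a was well above background in 3 of 4 MRL/lpr mice, so the size of its fall rests partly on values near the floor. In the Cy3 mice alone the difference was -1.75 (limma adjusted p = 0.0234). The call was lost without MRL/lpr replicate 1 or 2 or MRL/+ replicate 1 or 4, at -1.59 to -1.26 with limma adjusted p between 0.052 and 0.0664. Its probe lies at chr13:106237236-106237295 of mm9 on the plus strand.

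The other serotonin receptors passed in 0 comparisons. Htr2c, the receptor that is most abundant in the choroid plexus, read 0.466, 0.463, 1.59 and 0.580 in MRL/lpr, 1.43, 1.69, 1.54 and 1.99 in Fn14ko, and 1.10, 0.940, 1.28 and 0.621 in MRL/+. Fn14ko lay above all MRL/+ mice, and of the MRL/lpr mice replicate 3 alone reached the Fn14ko range. Against Fn14ko the MRL/lpr difference was -1.30 ± 0.40 (limma adjusted p = 0.0918). The summed signal of 8 choroid plexus markers was 21.7, 23.1, 155 and 41.5 in the MRL/lpr mice, 111, 212, 32.1 and 294 in Fn14ko, and 31.1, 107, 36.4 and 307 in MRL/+. Within MRL/lpr and within Fn14ko it was highest in the mouse with the highest Htr2c. Within MRL/+ it was highest in replicate 4, which had the lowest Htr2c of its group. Fn14ko replicate 3, with the lowest sum of its group, read 1.54 for Htr2c. Of the 8 choroid plexus markers Clic6 was lower in MRL/lpr than in Fn14ko (-2.96) and MRL/+ (-2.51), and the part of the choroid plexus in the Htr2c values was not tested.

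Htr1b, a receptor of axon endings, read 1.79 in Fn14ko replicate 1 and 0.309 to 0.696 in the other 11 mice. That mouse had a summed striatum marker signal of 175 over 11 markers, against 12.9 to 44.7 in the others, and it was also the highest of its group for Slc18a3 (0.943), Adra2c (6.87), Chat (0.590) and Hrh3 (17.9). Adra2c read 6.82 in MRL/+ replicate 3, at a striatum sum of 14.9, and Slc18a3 read 0.800 in MRL/+ replicate 2, at a striatum sum of 23.2. In all, 16 of 31 members were highest in Fn14ko replicate 1 within their group. Its negative control median was also the highest of its group, at 0.2351 against 0.04604 to 0.2133, and 7 of the 16 (Tph2, Slc6a3, Drd4, Htr2a, Htr6, Chrm2 and Chrm4) read 0.255 to 0.333, just above it. The part of the striatum signal and of the background in these values was not tested. Htr7 read 0.674 to 1.25 over all mice, with log2 fold changes of 0.07 to 0.27.

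**Figure D5:**
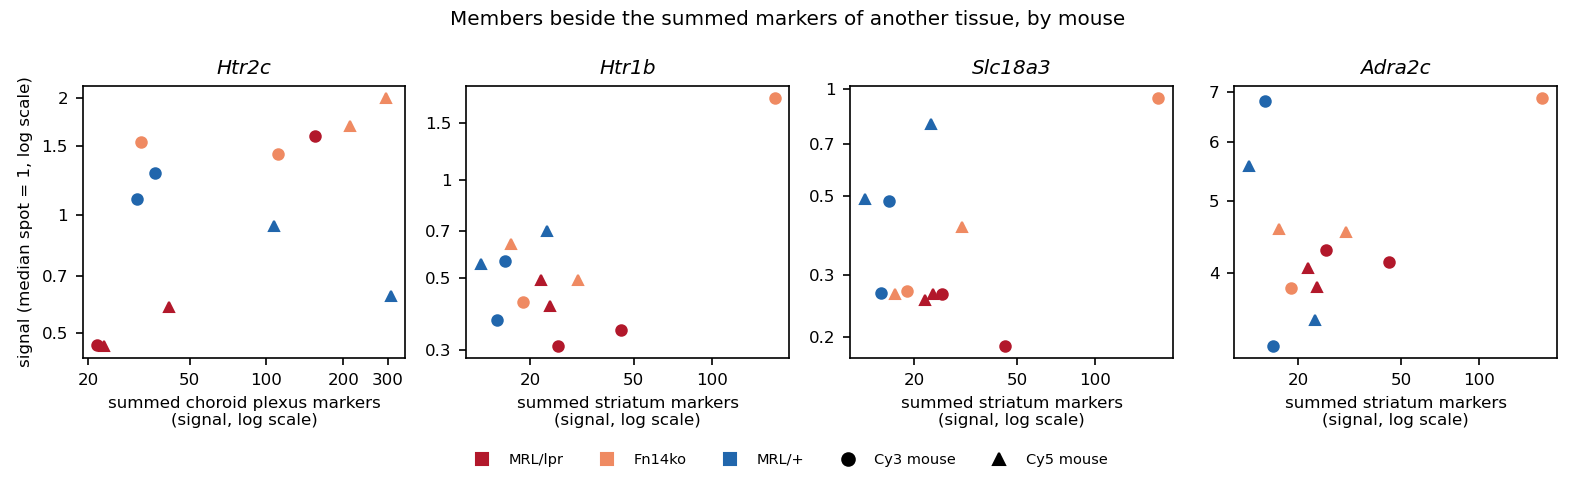
Signal of Htr2c against the summed signal of 8 choroid plexus markers, and of Htr1b, Slc18a3 and Adra2c against that of 11 striatum markers, 1 point a mouse and both axes on log scales. Fn14ko replicate 1, at a striatum sum of 175, has the highest Htr1b, Slc18a3 and Adra2c. MRL/+ replicate 3 nearly equals its Adra2c (6.82 against 6.87) at a striatum sum of 14.9, and MRL/+ replicate 2 has a Slc18a3 of 0.800 at 23.2. The MRL/lpr and Fn14ko mice with the highest Htr2c have the highest choroid plexus sum of their group, and the MRL/+ mouse with the highest sum has the lowest Htr2c of its group.

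Hrh3, the histamine autoreceptor that also restrains release of other transmitters, read 8.60, 9.22, 17.8 and 12.3 in MRL/lpr, 17.9, 10.7, 13.5 and 9.69 in Fn14ko, and 6.82, 4.73, 9.80 and 3.39 in MRL/+. The MRL/+ group was lowest but its replicate 3 exceeded 2 MRL/lpr mice and 1 Fn14ko mouse. The log2 fold change was 1.00 ± 0.31 in MRL/lpr (limma adjusted p = 0.0482, exact permutation p = 0.0857) and 1.14 ± 0.31 in Fn14ko (limma adjusted p = 0.0926, exact permutation p = 0.0571). Between MRL/lpr and Fn14ko it was -0.13 ± 0.31 (limma adjusted p = 0.879).

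The Hrh3 call in MRL/lpr held in 11 of 33 alternatives, the fewest of the 9 calls. It was lost without any of 8 mice (MRL/lpr replicates 2, 3 and 4, Fn14ko replicates 2 and 3 and MRL/+ replicates 1, 2 and 4), at 0.77 to 1.02 with limma adjusted p between 0.0536 and 0.21. In the Cy3 mice alone the difference was 0.60 (limma adjusted p = 0.372). The probe lies at chr2:179834245-179834304 of mm9 on the minus strand. Hrh1, which carries histamine's wakefulness signal, had 3 probes of differing sign and a difference of 0.30 ± 0.38 in MRL/lpr against MRL/+ (limma adjusted p = 0.581).

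Drd4 was the only dopamine receptor tested. It was dim, at 0.128 to 0.178 in MRL/lpr, 0.117 to 0.287 in Fn14ko and 0.122 to 0.546 in MRL/+, and its difference of -1.05 ± 0.55 in MRL/lpr against MRL/+ did not pass (limma adjusted p = 0.185). Both high MRL/+ values came from the Cy5 mice, below their negative control medians.

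The muscarinic receptors gave 0 calls among 4 tested. Chrm3, which couples to phospholipase C, read 0.398 to 0.522 in MRL/lpr and 0.557 to 0.782 in MRL/+, without overlap, and its difference of -0.59 ± 0.19 did not pass (limma adjusted p = 0.0553, exact permutation p = 0.0286). Both Cy5 mice of MRL/+ were not well above background for it. Chrm1, the main muscarinic receptor of the cortex, read 1.18 to 1.54 in MRL/lpr, 1.47 to 2.20 in Fn14ko and 1.42 to 2.16 in MRL/+ (-0.34 ± 0.20 in MRL/lpr against MRL/+, limma adjusted p = 0.235). Of its 2 probes the dimmer, at 0.268, passed when tested singly (-1.32, limma adjusted p = 0.0433), and the brighter, at 3.00, did not (-0.23, limma adjusted p = 0.497). Chrm2 and Chrm4 were at the negative control level in both Cy5 mice of MRL/+.

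The nicotinic subunits Chrna4 and Chrnb2, which together form the main high-affinity receptor of the brain, were the 2 of 5 tested. Chrna4 was even across mice, from 0.390 to 0.718, with differences of -0.24 to 0.09. Chrnb2 read 1.07 to 3.14 in MRL/lpr, 1.71 to 2.09 in Fn14ko and 0.988 to 1.91 in MRL/+, with differences of -0.24 to 0.37. Neither passed in any comparison, with limma adjusted p of 0.468 or more.

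Ache, the acetylcholinesterase that ends cholinergic transmission, gave the smallest adjusted p of all members. It read 0.727, 0.556, 0.876 and 0.730 in MRL/lpr, 1.21, 1.05, 1.18 and 0.837 in Fn14ko, and 1.71, 1.67, 1.67 and 1.30 in MRL/+. All MRL/+ mice lay above all others, and MRL/lpr and Fn14ko overlapped in 1 mouse each. Against MRL/+ the log2 fold change was -1.15 ± 0.16 in MRL/lpr (limma adjusted p = 0.0012) and -0.58 ± 0.16 in Fn14ko (limma adjusted p = 0.1), with an exact permutation p of 0.0286 in each. Between MRL/lpr and Fn14ko it was -0.57 ± 0.16 (limma adjusted p = 0.0725).

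The 2 Ache probes lie at chr5:137733122-137733181 and chr5:137735513-137735572 of mm9 on the plus strand, and fell singly by 1.39 and 0.93 on the log2 scale in MRL/lpr against MRL/+ (limma adjusted p = 0.00496 and 0.0062). They differed against Fn14ko, where the first was at -1.08 (limma adjusted p = 0.0366) and the second at -0.11 (limma adjusted p = 0.825). The call against MRL/+ was lost only where dim spots were kept (-0.55, limma adjusted p = 0.387).

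The other cholinergic genes gave 0 calls. Slc18a3, which loads acetylcholine into vesicles, read 0.189 to 0.265 in MRL/lpr and 0.266 to 0.800 in MRL/+, without overlap but with MRL/+ replicate 4 below its negative control median (-0.97 ± 0.48, limma adjusted p = 0.162). Chat, which makes acetylcholine, read 0.357 to 0.763 in MRL/lpr, 0.215 to 0.590 in Fn14ko and 0.295 to 0.776 in MRL/+, all overlapping. Of 8 markers of cholinergic neurons of the basal forebrain and striatum only 3 were measured, with sums of 1.28 to 2.98 in MRL/lpr, 3.04 to 4.06 in Fn14ko and 2.72 to 6.97 in MRL/+. Ngfr (-1.16, limma adjusted p = 0.0221) and Zic4 (-1.32, limma adjusted p = 0.00609) of these fell in MRL/lpr against MRL/+. They were well above background in 11 and 10 of 12 mice. Their MRL/+ means of 0.611 and 0.607 lay under the negative control medians of MRL/+ replicates 2 and 4 (0.6625 and 0.8225). The part of these markers in the Ache result was not tested.

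Beyond the members, 42 of 59 other genes of the same pathways were tested. In MRL/lpr against MRL/+ 3 rose and 4 fell (16.7%, near the 14.4% of all genes), with a median log2 fold change of -0.32 against -0.10 over all genes. The serotonin receptor Htr5b fell from 0.652 ± 0.181 to 0.161 ± 0.0601 (SD, n = 4, log2 fold change -2.05 ± 0.36 SE, limma adjusted p = 0.00386). It was well above background in 9 of 12 mice. Its MRL/+ mean lay under the negative control medians of MRL/+ replicates 2 and 4 (0.6625 and 0.8225). The monoamine carrier Slc29a4 (-1.53, limma adjusted p = 0.0337), the choline carrier Slc44a1 (-0.71, limma adjusted p = 0.0103) and the nicotinic receptor chaperone Ric3 (-0.62, limma adjusted p = 0.0348) also fell. Those that rose were the receptor-desensitizing arrestin Arrb1 (1.43, limma adjusted p = 0.0203), the G protein regulator Rgs4 (1.19, limma adjusted p = 0.00949) and S100a10, a partner of serotonin receptors (0.78, limma adjusted p = 0.0475).

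In Fn14ko against MRL/+ 0 of the 42 passed, with a median of -0.19. In MRL/lpr against Fn14ko, Htr5b (-1.78, limma adjusted p = 0.0141) and Slc44a1 (-0.80, limma adjusted p = 0.00978) were lower and 0 were higher. The thalamus marker Prkcd was also lower in MRL/lpr against both other groups (-2.06 and -1.82, limma adjusted p = 0.00102 and 0.00335), as 1 of 6 measured genes of a thalamus and hippocampus list. The other 5 passed in neither comparison, with 3 of them at 0.01 to 0.38 against Fn14ko, and the list had medians of -0.25 and -0.02. The part of Prkcd in the Htr5b values was not tested. Of the 10 enzymes tested, 0 passed in any comparison.

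Members varied more between mice of a group than genes in general. Their median coefficient of variation was 21.0% among MRL/lpr mice, 26.7% for Fn14ko and 34.4% for MRL/+, against 15.5%, 17.9% and 25.9% over all 17302 genes. The members were also dimmer than genes in general, with 10 of 31 above the median gene, and were not set against genes of like signal. The 3 members over 100% were Slc6a3, Htr2a and Htr6 in MRL/lpr. In MRL/+, 16 members were highest in replicate 2 and 17 lowest in replicate 3. The negative control median of these mice was 0.6625 and 0.0713, and its part in the spread was not tested.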

How the data were processed

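The authors hybridised cortex RNA to 2-colour Agilent microarrays and deposited scanner output, whose intensity values (foreground and local background per spot and channel) were used here. Probe positions and gene names are those of the file headers (mm9). Each channel was treated as 1 mouse. Background was corrected by normexp (offset 50), each mouse was scaled to its median retained spot, and spots marked by the software or under 2 times local background were left out, which kept 24255 of 43020. Spots of a gene were averaged on the linear scale. Tests used limma 3.58.1 in R 4.3.3 over all 17302 genes, with group and dye as terms, array as a random block (correlation 0.316) and Benjamini-Hochberg adjustment at 0.05, and two-sided exact permutation tests over mice. The permutation tests divided the 8 mice of 2 groups freely, in 70 ways, and took no account of array or dye. The script was tested on simulated data. Figures used Python 3.11.15 and matplotlib 3.10.9. Members past a threshold are given in full, the others by family, other pathway genes where past a threshold, and marker genes where past it or to complete a list, with summed signals of the lists set beside results. The members and lists were chosen with earlier results of these data known. The number of arrays limits the precision. P-values measure the spread between these mice.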

Additional observations from a re-analysis of the deposited data

Results flagged for a closer look

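Of 93 groups of 4 mice, 4 held a mouse far from the other 3, where chance gives about 1 group in 20. Ache in MRL/+ replicate 4 was low, at 1.30 against 1.67 for the next mouse. Adra2a in MRL/lpr replicate 3 was high, at 2.6 against 1.65. Adrb1 in Fn14ko replicate 3 was high, at 1.15 against 0.699. Slc18a3 in MRL/lpr replicate 3 was low, at 0.189 against 0.255.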

How the results depend on the processing

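In MRL/lpr against MRL/+, where 6 members passed, the count was 28 with the negative control background, 11 in the Cy5 mice alone, 10 without the array block, 3 by the methods' t-test after Benjamini-Hochberg adjustment, 3 without both Cy5 mice of MRL/+ and 0 with no filter on dim spots. The number of all genes called moved too, from 2492 of 17302 to 14573, 4549, 5189, 721, 871 and 22 of 29149 in the same order. Leaving out 1 mouse gave a member count of 3 to 12, with 781 to 5551 of all genes called. In Fn14ko against MRL/+, where 1 passed, it was 10 in the Cy5 mice alone, 7 with the negative control background and by the unadjusted t-test, 5 with its robust form, 4 with loess and Aquantile, among genes well above background in all mice, without the array block or with only the groups compared, 2 with 75th percentile scaling or bright patches left out, and 0 with no filter, no dye term, the Cy3 mice alone, no variance trend, the adjusted t-test or without both Cy5 mice of MRL/+. Leaving out 1 mouse gave a member count of 0 to 4, with 8 to 2164 of all genes called. In MRL/lpr against Fn14ko, where 2 passed, it was 27 with the negative control background, 7 by the unadjusted t-test, 5 with the processed signal, 4 with loess and Aquantile or without the array block, 1 among genes well above background in all mice or with marked spots kept, and 0 with no filter, probes averaged on the log2 scale, the Cy3 mice alone, only the groups compared, no variance trend, the adjusted t-test or without both Cy5 mice of MRL/+. Leaving out 1 mouse gave a member count of 0 to 3, with 357 to 1002 of all genes called. For Fn14ko against MRL/+ and MRL/lpr against Fn14ko, the other settings carry no number of all genes called beside them. Their member counts therefore do not tell a change in the members from a change in all genes.

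With the replicate number as a block 13, 4 and 4 members passed, with 6290 of all genes called in MRL/lpr against MRL/+. The other 2 comparisons carry no number of all genes here. The numbers were not taken as pairs, since not every correlation of same-numbered mice was over 0.1. After the dye term these were -0.0968 to 0.013 in MRL/lpr against MRL/+ and -0.0762 to 0.0954 in MRL/lpr against Fn14ko. In Fn14ko against MRL/+ they were 0.477, 0.163, 0.383 and -0.276, so a shared factor in 3 of the 4 numbers was not tested there. Adrb1 in MRL/lpr against MRL/+ reversed to -0.03 with probes averaged on the log2 scale. With the negative control background Hrh3 reversed to -0.98 (limma adjusted p = 0.0137) and Htr1a to 0.15, and 2 or 3 of 153 negative control spots per MRL/lpr channel were bright, the highest of each channel at 18300 to 36600 against at most 271 in the other groups. The settings without the Cy5 mice of MRL/+, without patches and with the robust background were chosen after seeing the data. Scaling to the 75th percentile moved the median of all genes to -0.34, -0.35 and -0.06 in the 3 comparisons. Ache and Adra1d kept their MRL/lpr against MRL/+ calls in 32 of 33 alternatives and Htr3a in 30. The cause of these shifts was not tested.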
